A study of Homo sapiens with 21 samples.

Results

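The 47 genes described here are the proteasome symbols of MM.1S, a human multiple myeloma cell line grown from peripheral blood. They are the symbols that begin with PSMA, PSMB, PSMC, PSMD, PSME, PSMF or PSMG and reach a mean of at least 1 TPM (a length-scaled share of a library's transcripts) over the 21 libraries. Of the 17691 symbols in the table, 49 carry these prefixes. PSMA8 and PSMB11, the subunits known from testis and thymus, stayed under the minimum, with no library above 0.32 and 0.15 TPM. The 47 divide into 31 constitutive subunits, 5 immunoproteasome members (PSMB8, PSMB9, PSMB10, PSME1 and PSME2), 7 assembly factors, 3 other cap proteins or inhibitors (PSME3, PSME4 and PSMF1) and PSMC3IP. PSMC3IP is a cofactor of meiotic recombination that carries the prefix by name and is no proteasome subunit, so counts are also given for the other 46 genes. All 47 passed the filter on low values.

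The mRNA of MM.1S was sequenced in 7 groups of 3 libraries, all from the same line. In the drug arm, cells were left untreated or exposed to 1 µM pomalidomide, with libraries at 24, 48 and 72 h. In the hairpin arm, cells received lentivirus for 72 h with a hairpin against ARID2, a subunit of a SWI/SNF chromatin remodelling complex, or against Aiolos, the product of IKZF3, beside cells labelled control knockdown. For the control knockdown neither hairpin nor duration is given in the labels, nor whether each target had 1 hairpin or several. The submitters call the replicates biological but say nothing of separate cultures, so a p-value here reflects variation among these libraries, which may be technical. The untreated group has a single time, so time in culture and time in drug cannot be told apart.

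Pomalidomide binds cereblon, which picks substrates for a ubiquitin ligase, and sends Ikaros, Aiolos and other proteins to the proteasome. The proteasome is a barrel of alpha and beta rings, the 20S core, with a regulatory cap, the 19S particle, at its ends. The cap binds ubiquitinated proteins, removes the ubiquitin, and unfolds and feeds them into the core, where the subunits beta1, beta2 and beta5 cut them. In immune cells and under interferon, beta1i (PSMB9), beta2i (PSMB10) and beta5i (PSMB8) can replace the constitutive beta1 (PSMB6), beta2 (PSMB7) and beta5 (PSMB5), and PSME1 with PSME2 form the alternative cap PA28 alpha-beta. Plasma cells and myeloma cells secrete large amounts of immunoglobulin and depend heavily on the proteasome, which is the target of bortezomib and carfilzomib in this disease.

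The libraries labelled ARID2 knockdown held 12.24 ± 0.191 TPM of ARID2 (SD, n = 3), against 25.63 ± 0.322 TPM in the control knockdown, a log2 change of -1.01 ± 0.07 (SE, limma, adjusted p = 8.13e-11). IKZF3 went against its label: the libraries labelled Aiolos knockdown held 129.9 ± 10.4 TPM against 81.35 ± 2.19 TPM in the control, a change of 0.67 (limma, adjusted p = 1.92e-10). These libraries are therefore called "labelled Aiolos knockdown" throughout. All 8 plasma cell markers examined were present in every group, with a summed level of 10800 to 11000 TPM untreated, 8370 to 8580 TPM at 24 h, 8640 to 8770 TPM at 48 h and 8840 to 9130 TPM at 72 h. The sum was 11500 to 11700 TPM in the control knockdown, 10200 to 10600 TPM with the ARID2 hairpin and 6700 to 7060 TPM with the Aiolos label. It was lower after the drug and with either hairpin than in the matching control, and its part in the changes below was not tested. The markers did not move together. At 72 h JCHAIN, the largest, went from 5731 to 3770 TPM, and TNFRSF17, IRF4, SLAMF7 and PRDM1 were also lower. SDC1 went from 685.6 to 925.6 TPM, MZB1 from 1133 to 1977 TPM, and XBP1 hardly moved (1086 and 1079 TPM). With the ARID2 hairpin XBP1 (1280 to 1695 TPM), PRDM1 and SDC1 were higher and the rest lower. With the Aiolos label only SDC1 was higher. Summed levels per library ran from 0.408 to 2.43 TPM for 3 B cell markers and from 1.39 to 5.35 TPM for 4 T and NK cell markers. For 4 stromal or epithelial markers they ran from 0.25 to 2.61 TPM. Of these, KRT19, MS4A1 and CD3D were at or near 0, while CD2 went from 0.122 TPM untreated to 3.112 TPM at 48 h. BCL6 went from 0.387 to 1.892 TPM. The summed level of 5 myeloid markers was 4.26 to 6.63 TPM in untreated libraries and 42.7 to 73.2 TPM in drug-treated ones, carried chiefly by CD68. It was 6.71 to 8.62 TPM in the control knockdown, 15.4 to 16.3 TPM with the ARID2 hairpin and 21.5 to 26.5 TPM with the Aiolos label. The part of this sum in the changes below was not tested. Sequencing depth cannot be read from TPM and is unknown, the listed genes summed to 951444 to 968652 TPM per library, and mitochondrial mRNA took 13.3% to 18.6% of it. TPM is a share of RNA, so fewer cells that hold a transcript and less of it per cell cannot be told apart.

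Of the 47 genes, 41 matched a promoter in RefSeq (GRCh38.p14, 250 bases before to 50 after the start), giving 51 promoters. PSMA7, PSMB1, PSMB6, PSMB7, PSMD4 and PSMG3 had none. The genes lie on 17 chromosomes, and what several of them share is in these windows. GAAA followed after any 2 bases by GAAA, the core of the interferon-stimulated response element, was found on either strand in 7 of the 51 promoters (13.7%) and in 1255 of all 35116 promoters of that table (3.57%). Of the 6 immunoproteasome promoters 4 held it, and the other 3 holders were PSMA4, PSMB4 and PSMG4. These 4 are shown because they carry the same 10 letters, GAAAGCGAAA, on one strand or the other, while the 4 genes behaved differently in what follows. Each is printed 5′ to 3′ on the gene's own strand, with the match in capitals, and TTTCGCTTTC is the same match read from the opposite strand. They lie at chr6:32843998-32844297 (PSMB8, minus strand), chr16:67936801-67937100 (PSMB10, minus strand), chr14:24135944-24136243 (PSME1, plus strand) and chr14:24146561-24146860 (PSME2, minus strand). The matches begin at -4, -21, 5 and -28 relative to the start in the same order.
PSMB8: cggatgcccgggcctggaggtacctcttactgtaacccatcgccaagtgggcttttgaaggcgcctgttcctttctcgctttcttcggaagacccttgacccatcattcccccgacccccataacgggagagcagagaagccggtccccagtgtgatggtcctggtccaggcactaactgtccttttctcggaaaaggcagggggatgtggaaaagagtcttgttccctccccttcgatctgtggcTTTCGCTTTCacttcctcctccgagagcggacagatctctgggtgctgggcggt
PSMB10: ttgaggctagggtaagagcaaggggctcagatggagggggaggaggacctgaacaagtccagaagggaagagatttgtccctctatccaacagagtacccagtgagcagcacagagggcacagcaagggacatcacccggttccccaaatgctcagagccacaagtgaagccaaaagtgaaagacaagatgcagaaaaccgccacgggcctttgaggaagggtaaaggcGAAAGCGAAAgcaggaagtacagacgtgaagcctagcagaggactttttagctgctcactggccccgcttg
PSME1: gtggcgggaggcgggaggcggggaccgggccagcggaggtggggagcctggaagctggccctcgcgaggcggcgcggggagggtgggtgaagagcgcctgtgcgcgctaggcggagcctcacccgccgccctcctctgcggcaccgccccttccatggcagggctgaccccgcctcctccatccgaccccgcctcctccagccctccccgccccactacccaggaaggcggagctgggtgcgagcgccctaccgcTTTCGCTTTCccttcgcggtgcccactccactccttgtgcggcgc
PSME2: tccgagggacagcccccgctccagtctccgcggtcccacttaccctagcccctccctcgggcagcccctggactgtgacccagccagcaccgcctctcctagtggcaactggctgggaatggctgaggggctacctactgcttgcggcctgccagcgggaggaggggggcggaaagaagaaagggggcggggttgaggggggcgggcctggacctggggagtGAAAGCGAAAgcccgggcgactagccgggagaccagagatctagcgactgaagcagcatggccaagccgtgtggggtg

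TGACNNNGC, the core of the antioxidant element that NFE2L1 and NFE2L2 bind, was in 15 of the 51 promoters (29.4%) and in 13.3% of all promoters, and the 15 genes include PSMB3, PSMC4, PSMC5, PSMD1, PSMD5 and PSMG1 as well as PSMB9, PSME1 and PSME2. CCGGAAG, a core that ETS factors bind, was in 16 (31.4%) against 10.3%, none of them an immunoproteasome promoter. CCAAT, the NF-Y box, was in 41.2% against 34.6%, and GGG followed after any 2 bases by TTTCC, an NF-kB-like site, in 1.96% against 1.91%. Both strands were searched, and a match describes letters in the window only.

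The genes covered a wide range of levels. PSMB4, a structural beta subunit, had the highest mean over the 21 libraries at 532.6 TPM, followed by PSMA7 of the alpha ring at 368.5 TPM and the catalytic subunit PSMB6 at 322.9 TPM. The assembly factors PSMD9 and PSMG4 were lowest at 13.12 and 5.917 TPM. Of the immunoproteasome members, PSME1 had 239.0 TPM and PSMB10 184.5 TPM, whereas PSMB9 had 32.34 TPM. TPM is scaled by length, so these levels can be set beside each other, although values of near-identical copies are uncertain: 12 of the 47 genes have named pseudogenes in GENCODE 29, 32 in all.

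After pomalidomide the transcripts of the proteasome were lower as a group. Their summed level was 7105, 7172 and 7103 TPM in the untreated libraries, 5859, 5788 and 5700 TPM at 24 h, 4553, 4569 and 4618 TPM at 48 h, and 5180, 5268 and 5335 TPM at 72 h. No untreated library overlapped a treated one, the 48 h libraries were lowest, and the 72 h libraries lay between those of 48 and 24 h. As a share of the listed TPM the sum went from 0.736% in untreated cells to 0.602%, 0.481% and 0.551%. The constitutive subunits summed to 5700 ± 30.7 TPM untreated and 3527 ± 26.3 TPM at 48 h, and the immunoproteasome members to 730.0 ± 18.0 and 546.9 ± 13.2 TPM (SD, n = 3).

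Gene by gene, log2(TPM + 1) was tested with limma in 1 fit over all 21 libraries, with Benjamini-Hochberg adjustment over the 12559 genes kept, and a gene rose or fell where the adjusted p was under 0.05. Standard errors of the genes' log2 changes between 2 groups ran from 0.03 to 0.08. Those of the differences between drug and hairpin changes ran from 0.04 to 0.12. At 24 h 39 of the 47 genes fell and 2 rose, where 31.0% of all genes tested fell and 35.1% rose. At 48 h 42 fell and 2 rose (34.8% and 43.8% of all genes tested). At 72 h 39 fell and 2 rose (31.6% and 48.1%, or 39.2% and 39.2% under median-of-ratios scaling). Without PSMC3IP, 38, 41 and 38 of 46 fell. The median log2 change of the 47 was -0.29, -0.59 and -0.42, beside medians over all genes of 0.03, 0.08 and 0.15. Median-of-ratios scaling lowered the last of these by 0.15. Relative to the median of all genes, the 47 stood at -0.32, -0.68 and -0.57. The 3 drug times share the untreated libraries and are therefore not independent of each other.

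**Figure D1:**
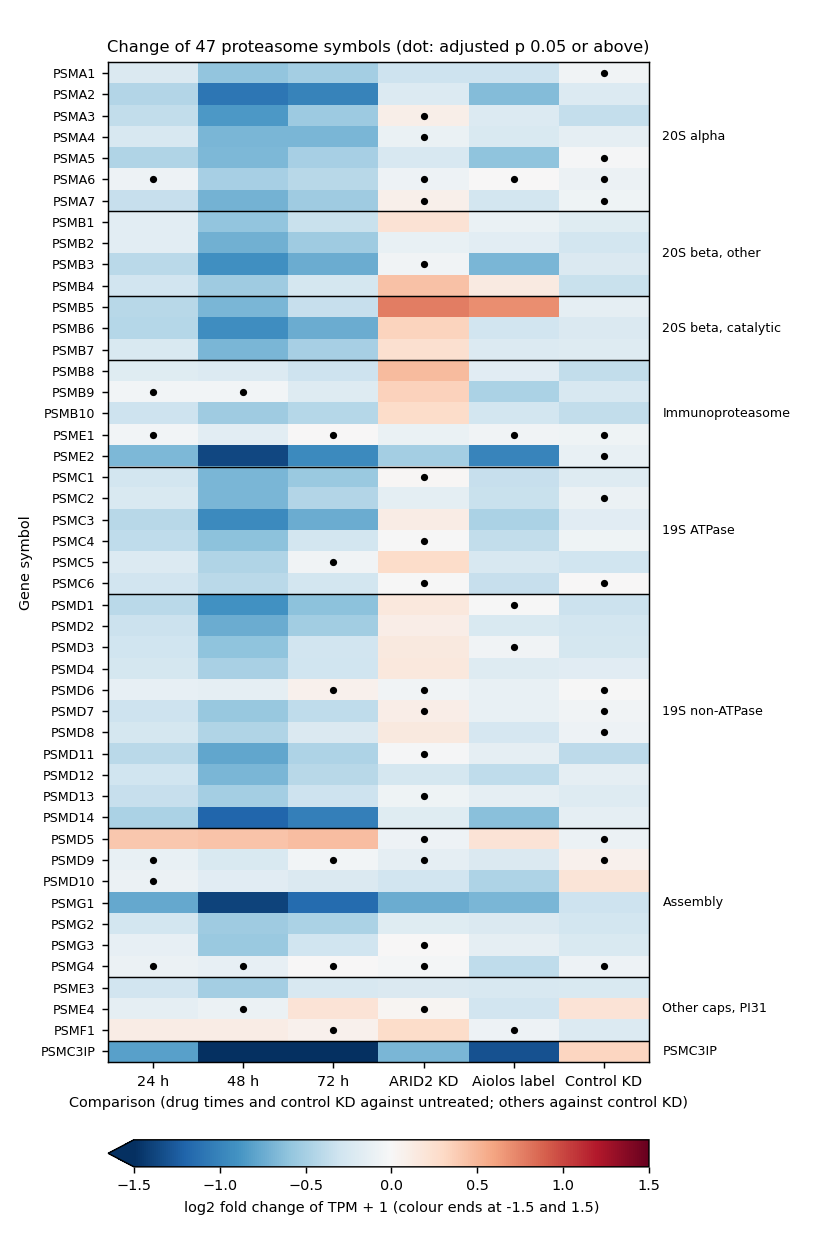
Log2 change of TPM + 1 for each of the 47 genes (rows, grouped by role) in 6 comparisons (columns); blue is lower, red is higher, and a dot marks an adjusted p of 0.05 or above. The drug columns are blue for nearly every constitutive subunit, and the ARID2 column holds both colours; under median-of-ratios scaling, among others, the changes of PSMF1 at 24 and 48 h, PSME4 at 72 h and PSMB4 with the Aiolos label no longer pass, and PSMC5 and PSME1 at 72 h pass as lower.

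On the deposited TPM scale all 31 constitutive subunits had their lowest group mean at 48 h among the 4 groups of the drug arm, as did 40 of the 47 genes (85.1%), compared with 24.0% of all genes tested. Under median-of-ratios scaling, chosen after seeing the data, this held for 27 of 31 and 35 of 47 (74.5%, against 21.7% of all genes tested), and the alpha-ring subunits PSMA1, PSMA2, PSMA4 and PSMA6 were lowest at 72 h. From 24 to 48 h, 37 of the 47 fell further and 0 rose (26.1% and 32.1% of all genes tested; 0 rose also at an unadjusted p under 0.05). From 48 to 72 h, 33 rose and 0 fell (31.6% and 16.5%; 0 fell also at an unadjusted p under 0.05), with a median change of 0.18. With median-of-ratios scaling 21 rose and 4 fell in this step, and 20.1% and 23.5% of all genes tested did.

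**Figure D2:**
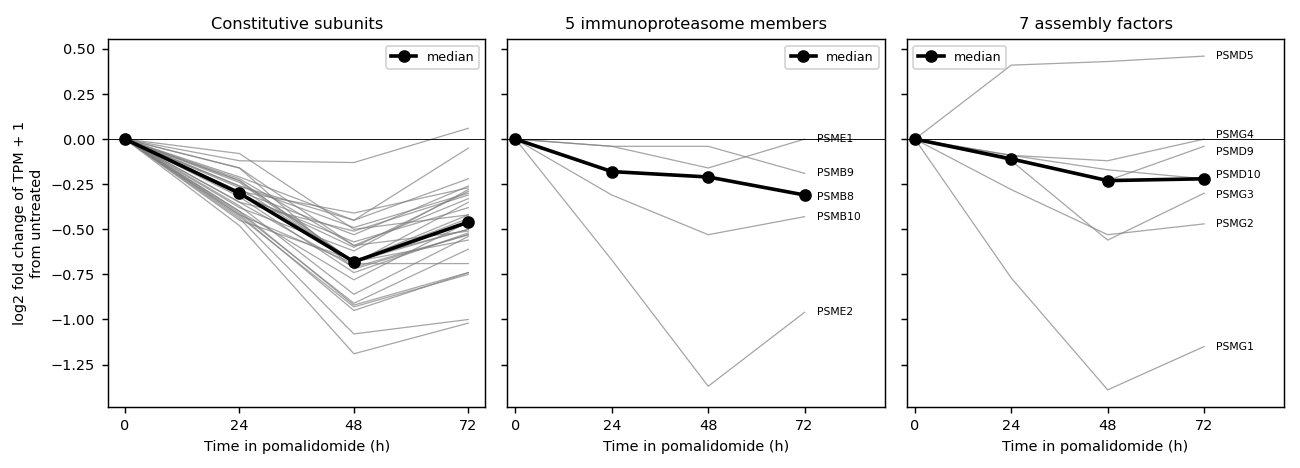
Log2 change of TPM + 1 from untreated against hours in pomalidomide, 1 grey line per gene and a black line for the median, for 31 constitutive subunits, 5 immunoproteasome members and 7 assembly factors. The constitutive median reaches its minimum of -0.68 at 48 h and stands at -0.46 at 72 h, while PSMD5 is above 0 and PSMG1 and PSME2 are the lowest lines of their panels; with median-of-ratios scaling the 72 h points lie 0.15 lower.

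Among the constitutive subunits, 30 of 31 fell at 24 h, 31 at 48 h and 29 at 72 h, while 0 rose in limma's test (0 also at an unadjusted p under 0.05). Of all genes tested, 31.0%, 34.8% and 31.6% fell and 35.1%, 43.8% and 48.1% rose. The medians of the 31 subunits were -0.30, -0.68 and -0.46, or -0.33, -0.77 and -0.61 relative to all genes. The 7 alpha-ring subunits, which form the outer gate of the core, fell by a median of 0.69 at 48 h. PSMA2 was the lowest of them, with 136.71, 144.56 and 133.68 TPM untreated and 65.93, 61.35 and 67.69 TPM at 48 h, a change of -1.08 ± 0.05 (limma, adjusted p = 3.1e-14). PSMA6 was the least changed, at -0.08, -0.50 and -0.42, and its 24 h value did not pass (limma, adjusted p = 0.128; -0.14 and 0.0183 under median-of-ratios scaling). The 4 beta subunits without a catalytic site all fell at each time, from PSMB4 at -0.29, -0.53 and -0.26 to PSMB3 at -0.40, -0.92 and -0.74. The 24 h call of PSMB2 was lost under quantile normalization (-0.09, limma, adjusted p = 0.0652).

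The 6 ATPases of the cap (PSMC1 to PSMC6) unfold the substrate. All 6 fell at 24 and 48 h, and 5 at 72 h (31.0%, 34.8% and 31.6% of all genes tested at 24, 48 and 72 h). PSMC3 showed the largest change, from 246.3 ± 7.84 TPM to 126.9 ± 2.73 TPM at 48 h (-0.95 ± 0.04), and PSMC5 the smallest at 72 h. PSMC5 held 129.02, 133.32 and 131.49 TPM untreated, 94.08, 95.31 and 98.55 TPM at 48 h and 128.08, 126.59 and 125.54 TPM at 72 h. Its 72 h libraries lay just below the untreated ones, at -0.05 ± 0.03 (limma, adjusted p = 0.15), and with median-of-ratios scaling it fell by 0.21 (adjusted p = 1.1e-05).

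The 11 other cap subunits fell at 24 and 48 h, and 10 of them at 72 h (31.0%, 34.8% and 31.6% of all genes tested at 24, 48 and 72 h). PSMD14, the deubiquitinase that removes ubiquitin chains as a substrate enters, fell furthest. Its libraries held 67.80, 68.37 and 68.10 TPM untreated, 46.74, 50.59 and 48.11 TPM at 24 h, 30.15, 26.86 and 30.76 TPM at 48 h and 31.50, 32.73 and 34.73 TPM at 72 h. The groups did not overlap between untreated and any drug time, with changes of -0.48, -1.19 and -1.02 ± 0.05 (limma, adjusted p = 9.2e-14 at 72 h). PSMD6, a scaffold subunit of the lid, changed least (-0.12, -0.13 and 0.06), and the first 2 of these calls were lost when single libraries were left out: untreated replicates 1 or 3 or 24 h replicate 3 at 24 h, and 48 h replicate 1 at 48 h. Both were also lost without mitochondrial mRNA (-0.09 each). PSMD2, a large scaffold of the cap base and its most abundant subunit, went from 383.4 ± 5.29 to 229.5 ± 0.861 TPM at 48 h (-0.74).

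The 3 constitutive catalytic subunits fell at every drug time. PSMB5, which carries the chymotrypsin-like site and binds bortezomib, held 109.29, 114.51 and 111.68 TPM untreated, 84.72, 81.45 and 83.29 TPM at 24 h, 65.84, 67.06 and 74.24 TPM at 48 h and 92.01, 86.06 and 84.41 TPM at 72 h. Its changes were -0.42, -0.69 and -0.35 ± 0.04 (limma, adjusted p = 3.74e-07 at 72 h). PSMB6, with the caspase-like site, held 399.66, 410.86 and 423.33 TPM untreated and 210.26, 222.84 and 212.81 TPM at 48 h, and its changes were -0.43, -0.93 and -0.75. PSMB7, with the trypsin-like site, held 254.84, 245.06 and 255.82 TPM untreated and 154.12, 157.73 and 158.28 TPM at 48 h, and its changes were -0.23, -0.68 and -0.50. For each of the 3, no drug library reached the untreated range. The share of all genes with such a separation is not reported here. In limma's test 31.0%, 34.8% and 31.6% of all genes tested fell at 24, 48 and 72 h.

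The immunoproteasome members were uneven: 3, 4 and 4 of the 5 fell, with medians of -0.18, -0.21 and -0.31 (-0.20, -0.29 and -0.47 relative to all genes). Of all genes tested, 31.0%, 34.8% and 31.6% fell. PSMB8 held 96.47, 105.38 and 90.71 TPM untreated, 87.52, 81.88 and 89.03 TPM at 24 h, 85.16, 84.15 and 82.89 TPM at 48 h and 77.70, 83.59 and 73.74 TPM at 72 h. Its untreated libraries lay above the treated ones by a small margin, with changes of -0.18, -0.21 and -0.31 ± 0.06. The 24 h call was lost without untreated replicate 2 or 24 h replicate 2 (limma, adjusted p = 0.113 and 0.0797), and those of 24 and 48 h were lost under quantile normalization. PSMB9 held 34.97, 36.62 and 35.29 TPM untreated, 36.40, 34.18 and 33.45 TPM at 24 h, 35.09, 35.38 and 33.53 TPM at 48 h and 30.53, 35.57 and 27.75 TPM at 72 h. Its groups overlapped at each time, and its 72 h change of -0.19 ± 0.08 (limma, adjusted p = 0.0469) was lost on leaving out any untreated replicate or 72 h replicate 1 or 3, the last giving -0.11 (adjusted p = 0.262). PSMB10 held 226.33, 239.67 and 227.04 TPM untreated, 194.35, 182.43 and 182.42 TPM at 24 h, 154.43, 159.34 and 165.00 TPM at 48 h and 170.08, 183.20 and 160.66 TPM at 72 h, with changes of -0.31, -0.53 and -0.43 ± 0.06 and no overlap with untreated cells.

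Within each catalytic pair, the balance moved toward the immuno form at 48 h. The share of PSMB9 in the sum of PSMB9 and PSMB6 was 7.97% ± 0.25 untreated, 10.2% ± 0.24 at 24 h, 13.9% ± 0.37 at 48 h and 11.4% ± 1.3 at 72 h (SD, n = 3). Treated libraries did not overlap untreated ones at any of these times. The share of PSMB8 in its pair with PSMB5 was 46.5% ± 1.6, 50.9% ± 0.77, 54.9% ± 1.9 and 47.2% ± 1.8, above the untreated libraries at 24 and 48 h and overlapping them at 72 h. The share of PSMB10 in its pair with PSMB7 was 47.8% ± 1.4, 46.4% ± 0.45, 50.4% ± 0.52 and 49.1% ± 1.8, below the untreated libraries at 24 h, above them at 48 h and overlapping them at 72 h. For PSMB9 and PSMB8 these shares moved while the constitutive partner fell by more than the immuno form. With 3 libraries against 3, an exact permutation test cannot give a p under 0.10, so these ratios were not tested.

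**Figure D3:**
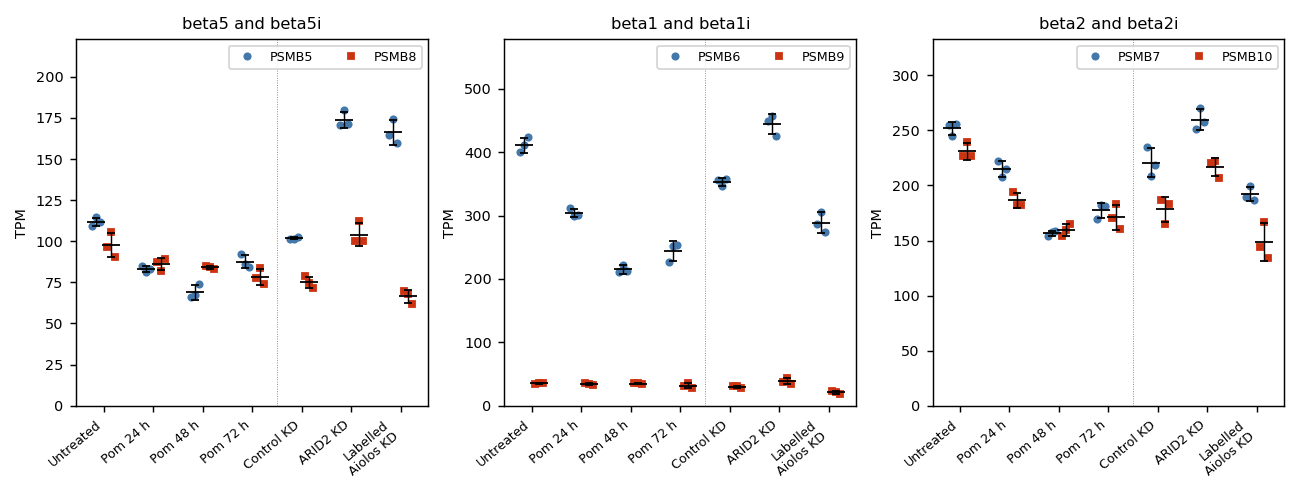
TPM of each constitutive catalytic subunit (blue circles) and its immuno counterpart (red squares) in the 7 groups, 3 libraries each, with a bar for the mean and whiskers for 1 SD; all vertical axes start at 0. PSMB5 falls from 111.8 to 69.04 TPM at 48 h and stands at 173.8 and 166.3 TPM in the ARID2 and Aiolos-labelled libraries, and PSMB9 stays far below PSMB6.

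The 2 chains of PA28 alpha-beta differed. PSME2 held 118.36, 115.87 and 108.35 TPM untreated, 72.03, 69.13 and 73.20 TPM at 24 h, 41.20, 44.26 and 45.07 TPM at 48 h and 58.69, 56.07 and 59.76 TPM at 72 h. The 4 groups did not overlap, and the changes were -0.67, -1.37 and -0.96 ± 0.04 (limma, adjusted p = 2.56e-16 at 48 h), so that at 48 h 0.386 of the untreated level was left. PSME1 held 257.07, 248.66 and 249.26 TPM untreated, 238.93, 260.12 and 237.31 TPM at 24 h, 215.81, 231.01 and 228.50 TPM at 48 h and 254.89, 244.15 and 257.31 TPM at 72 h. It fell at 48 h only, by 0.16 ± 0.04 (limma, adjusted p = 0.0006; 0.249 under quantile normalization), and at 72 h its change of 0.00 became -0.16 (adjusted p = 0.00106) under median-of-ratios scaling. The log2 ratio of PSME1 to PSME2, which dividing a library by 1 factor does not alter, was 1.14 ± 0.054 untreated and 1.78 ± 0.12, 2.37 ± 0.026 and 2.12 ± 0.0086 at the 3 times. The genes lie 4394 bp apart on opposite strands of chromosome 14 (PSME1 at 24136158 to 24138967, PSME2 at 24143362 to 24147570, GRCh38), and both promoters printed above hold GAAAGCGAAA.

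Of the other caps, PSME3, the nuclear activator PA28 gamma, went from 155.87, 153.20 and 158.49 TPM to 105.84, 108.27 and 114.07 TPM at 48 h and 132.11, 130.92 and 133.11 TPM at 72 h (-0.29, -0.51 and -0.24 ± 0.03). PSME4, or PA200, held 50.04, 49.52 and 51.79 TPM untreated, 43.05, 45.29 and 48.45 TPM at 24 h, 47.83, 50.03 and 44.56 TPM at 48 h and 58.43, 54.70 and 61.08 TPM at 72 h. It was lower at 24 h by 0.14 ± 0.06 (limma, adjusted p = 0.0291; lost without untreated replicate 1 or 3 or 24 h replicate 1 or 2, or without mitochondrial mRNA) and higher at 72 h by 0.20 (adjusted p = 0.00314; 0.04 and 0.503 under median-of-ratios scaling). PSMF1, or PI31, a binding partner of the core, was higher by 0.11 at 24 and 48 h, calls that were lost without untreated replicate 2, without 24 h replicate 2 or 48 h replicate 3 respectively, and under median-of-ratios scaling (0.06 and 0.03).

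**Figure D4:**
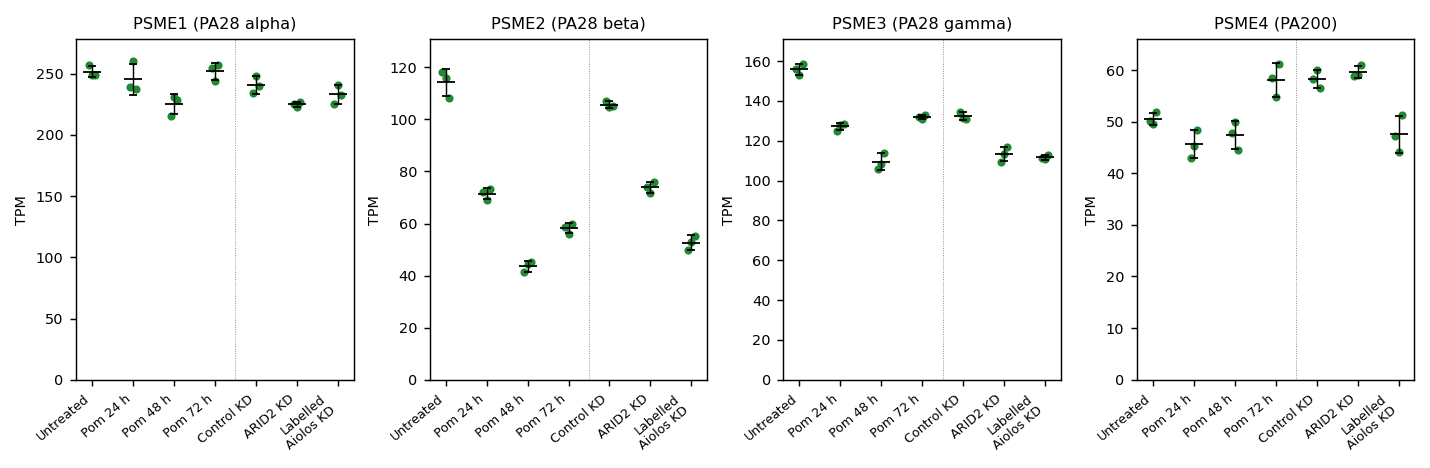
TPM of the 4 activator genes in the 7 groups, with a point per library, a bar for the mean and whiskers for 1 SD; each vertical axis starts at 0 and has its own range. PSME2 falls from 114.2 to 43.51 TPM at 48 h while PSME1 stays between 225.0 and 252.1 TPM in all groups.

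The 7 assembly factors were mixed. PSMG1, a chaperone that helps assemble the alpha ring, had the largest fall of any proteasome gene: 139.32, 147.58 and 143.67 TPM untreated against 85.06, 83.95 and 82.74 TPM at 24 h, 55.79, 53.75 and 52.70 TPM at 48 h and 65.19, 63.91 and 63.41 TPM at 72 h (-0.77, -1.39 and -1.15 ± 0.05; limma, adjusted p = 2.87e-14 at 72 h). Its partner PSMG2 fell by less (-0.28, -0.53 and -0.47). PSMD5, a chaperone of the cap's ATPase ring, went the other way, with 44.35, 43.30 and 40.47 TPM untreated, 54.22, 59.87 and 57.46 TPM at 24 h, 59.39, 59.10 and 54.58 TPM at 48 h and 61.93, 57.28 and 58.07 TPM at 72 h. Every treated library was above every untreated one (0.41, 0.43 and 0.46 ± 0.06; limma, adjusted p = 1.03e-06 at 72 h). PSMG4 did not pass at any drug time (-0.09, -0.12 and 0.00; it passed as lower under quantile normalization at 24 h, -0.25, and at 48 h, -0.33, and at 48 h under median-of-ratios scaling, -0.18). PSMC3IP, the recombination cofactor, fell more than any proteasome gene, from 45.55, 39.76 and 39.75 TPM to 10.39, 11.62 and 9.83 TPM at 48 h (-1.88 ± 0.07) and by 1.93 at 72 h.

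**Figure D5:**
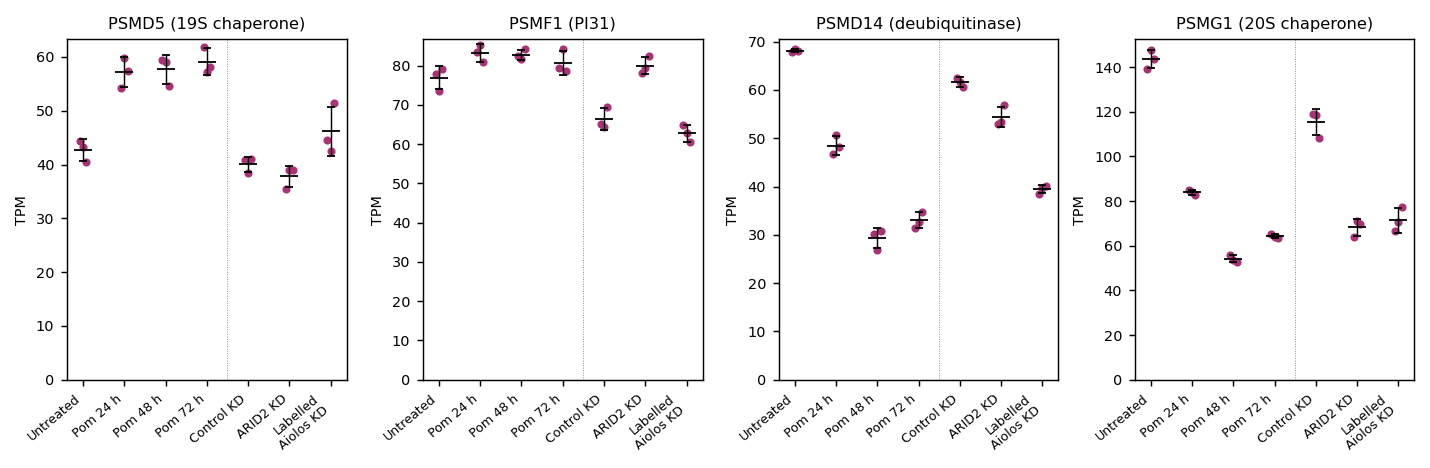
TPM of PSMD5, PSMF1, PSMD14 and PSMG1 in the 7 groups, with a point per library, a bar for the mean and whiskers for 1 SD; each vertical axis starts at 0. PSMD5 is higher at every drug time while PSMD14 and PSMG1 are lower; the small rises of PSMF1 at 24 and 48 h do not pass under median-of-ratios scaling.

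With the ARID2 hairpin, the shares of proteasome genes that rose and fell were close to those of all genes. Against the control knockdown, 16 of the 47 rose and 14 fell (33.1% and 29.2% of all genes tested; 19 and 11 under quantile normalization or without mitochondrial mRNA), and the median change was -0.01. The summed level was 6605, 6722 and 6601 TPM against 6318, 6158 and 6308 TPM in the control. The 3 constitutive catalytic subunits rose, as did PSMB1 and PSMB4, PSMC3 and PSMC5, and PSMD1, PSMD2, PSMD3, PSMD4 and PSMD8, 12 of 31 constitutive subunits in all, while 7 fell. Median-of-ratios scaling lost the calls of PSMC3 and PSMD2 (0.07 and 0.06), and leaving out single libraries lost that of PSMC3 in some fits. Quantile normalization lost the lower calls of PSMB2 and PSMC2. Of the alpha ring 0 rose (0 also at an unadjusted p under 0.05 in limma's test), although PSMA3 and PSMA7 did so under quantile normalization (0.12 and 0.18) and without mitochondrial mRNA (0.12 and 0.11), and PSMA1, PSMA2 and PSMA5 fell. PSMB5 changed most: 170.68, 179.72 and 171.12 TPM with the ARID2 hairpin against 101.67, 101.30 and 102.37 TPM, a change of 0.77 ± 0.04 (limma, adjusted p = 8.93e-12), or 1.7-fold. PSMB4 rose from 493.66, 470.90 and 494.18 to 665.78, 679.35 and 641.73 TPM (0.44 ± 0.04). PSMG1 fell from 118.84, 118.52 and 108.42 to 63.84, 71.03 and 69.71 TPM (-0.75 ± 0.05; limma, adjusted p = 1.02e-10), while PSMG2 fell by 0.18, a call lost in all leave-one-out fits of that comparison.

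Of the 5 immunoproteasome members, the 3 catalytic ones rose with the ARID2 hairpin and the 2 activator chains fell (33.1% and 29.2% of all genes tested). PSMB8 held 100.15, 112.15 and 100.15 TPM against 78.59, 74.82 and 71.39 TPM in the control (0.47 ± 0.06; limma, adjusted p = 1.33e-06). PSMB9 held 38.07, 43.61 and 34.57 TPM against 30.61, 31.18 and 28.32 TPM (0.35 ± 0.08). PSMB10 held 220.69, 222.20 and 207.14 TPM against 186.99, 164.93 and 182.80 TPM (0.28 ± 0.06). PSME2 held 73.97, 71.72 and 75.83 TPM against 107.07, 104.69 and 105.28 TPM (-0.51 ± 0.04), with no overlap. PSME1 was lower by 0.10 (limma, adjusted p = 0.0297), a call lost without control replicate 2 or 3 or ARID2 replicate 1 or 2, under quantile normalization (-0.02) and without mitochondrial mRNA (-0.07). Because PSMB5 rose more than PSMB8, the PSMB8 share of that pair was lower with the hairpin (37.4% ± 0.85 against 42.4% ± 1.3), and the PSMB9 and PSMB10 shares overlapped between the groups (8.01% against 7.84%, and 45.5% against 44.7%).

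PSMB8, PSMB9 and TAP1, which encodes a chain of the peptide transporter, are neighbours in the class II region of chromosome 6. The GENCODE 29 bodies of PSMB8 (32840717 to 32844703, minus strand) and PSMB9 (32844136 to 32859585, plus strand) overlap by 568 bp. The antisense gene PSMB8-AS1 overlaps PSMB8, and TAP1 (32845209 to 32853978) lies within the PSMB9 body on the opposite strand. A RefSeq promoter window of PSMB9 lies at 32853942 to 32854241, beyond PSMB8 and at the edge of TAP1. The overlaps of PSMB9 therefore depend on the annotation, and the one behind the TPM values is not given. No label says whether reads were counted by strand, so reads in the overlaps cannot be assigned and these 3 values are uncertain to that extent. TAP1 rose from 71.47 ± 2.72 to 138.4 ± 4.81 TPM with the ARID2 hairpin (0.94; limma, adjusted p = 4.44e-13) and fell by 0.19 at 72 h of drug.

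In the libraries labelled Aiolos knockdown, 39 of the 47 fell and 3 rose (30.7% and 37.2% of all genes tested), with a median of -0.24 and a summed level of 5264, 5517 and 5243 TPM. This comparison uses the same control libraries as the ARID2 one. All 6 ATPases, 9 of 11 other cap subunits and 6 of 7 alpha subunits fell, and PSMA6 did not pass (0.00). Among the 9, the call of PSMD6 was lost without control replicate 1, 2 or 3 or replicate 1 or 2 of the label. It was also lost with only the groups compared (-0.11, limma, adjusted p = 0.0711). PSMB3 fell most among the constitutive subunits (-0.68 ± 0.06), with PSMA2 at -0.65 and PSMD14 at -0.63. PSMB5 again rose, to 164.68, 174.57 and 159.79 TPM (0.70 ± 0.04; limma, adjusted p = 1.99e-11), well above the control range given earlier. The other 2 that rose were PSMB4 (0.13 ± 0.04; 0.06 and adjusted p = 0.167 under median-of-ratios scaling) and PSMD5 (0.20 ± 0.06; 0.12 and adjusted p = 0.0761 without replicate 3 of the label).

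The immunoproteasome members followed the fall with that label. PSMB9 held 23.04, 22.01 and 18.88 TPM (-0.48 ± 0.08; limma, adjusted p = 4.52e-05), PSMB10 143.89, 167.25 and 133.76 TPM (-0.27 ± 0.06, overlapping the control) and PSMB8 69.59, 67.98 and 61.78 TPM (-0.17 ± 0.06; adjusted p = 0.0175, lost without control replicate 1 or replicate 3 of the label). PSME2 held 49.81, 52.82 and 55.34 TPM (-0.99 ± 0.04; limma, adjusted p = 1.26e-13), while PSME1 did not pass (-0.05, adjusted p = 0.276; -0.11 and 0.0185 under median-of-ratios scaling). The log2 ratio of PSME1 to PSME2 was 1.19 ± 0.059 in the control knockdown, 1.61 ± 0.028 with the ARID2 hairpin and 2.15 ± 0.064 with the Aiolos label. With PSMB5 up and PSMB8 down, the PSMB8 share of that pair was 28.5% ± 1.0, the lowest of the 7 groups and below every control library. PSME3 and PSME4 held 111.7 ± 1.12 and 47.53 ± 3.61 TPM, against 132.4 ± 1.94 and 58.21 ± 1.77 TPM in the control (-0.24 and -0.29).

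The drug and hairpin effects were compared directly as the difference between the 72 h change and each hairpin change, which use separate controls. For 39 of the 47 genes the drug change was lower than the ARID2 change and for 1, PSMD5, it was higher (29.1% and 40.4% of all genes tested). PSMB5 differed most among subunits, by -1.12 ± 0.06 (limma, adjusted p = 3.06e-12), then PSMB6 by -1.08, and among the immunoproteasome members PSMB8 differed by -0.78. Against the libraries labelled Aiolos knockdown, the drug change was lower for 25 genes and higher for 9 (28.0% and 35.0%; 29 and 2 with median-of-ratios scaling). PSMB5 differed by -1.05 ± 0.06 (adjusted p = 9.35e-12). For PSME2 the drug change was lower than the ARID2 change by 0.45 ± 0.06 (adjusted p = 2.96e-06) and differed from the Aiolos-label change by 0.03 ± 0.06 (adjusted p = 0.675).

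The control knockdown itself stood apart from untreated cells. Against untreated cells 30 of the 47 were lower and 3 higher (28.4% and 17.3% of all genes tested), with a median of -0.17. PSMD11 was lower by 0.39, PSMB8 and PSMB10 by 0.37 and PSMA3 by 0.36, and the 3 higher ones were PSMC3IP (0.32), PSME4 (0.20) and PSMD10 (0.19). PSMB5 was lower by 0.13, a call lost under 3 other scalings and without untreated replicate 2. Transduction, culture time and hairpin cannot be told apart in that difference.

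Genes that act with the proteasome were examined as 3 lists. Of 15 associated factors, 11 fell and 1 rose at 24 h, 12 fell and 1 rose at 48 h, and 8 fell and 3 rose at 72 h. Of all genes tested 31.0%, 34.8% and 31.6% fell and 35.1%, 43.8% and 48.1% rose. UCHL5, a deubiquitinase docked on the cap, fell from 42.86 ± 1.18 to 15.85 ± 0.733 TPM at 48 h (-1.38) and also with the ARID2 hairpin (-0.70) and, to 20.65 ± 1.99 TPM, with the Aiolos label (limma, adjusted p = 4.17e-11). POMP, which matures the core, changed by -0.25, -0.87 and -0.75, and ADRM1, the ubiquitin receptor to which UCHL5 binds, by -0.32, -0.70 and -0.30. UBQLN2, a shuttle factor, rose by 0.24, 0.52 and 0.76. With the ARID2 hairpin, 6 of the 15 rose and 6 fell (33.1% and 29.2% of all genes tested): RAD23B, another shuttle, fell from 176.9 ± 0.186 to 93.65 ± 3.41 TPM (-0.91) and UBE3C, a cap-bound ligase, rose by 0.57.

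Of the 8 genes around NFE2L1, the factor that drives proteasome genes when the proteasome is short, 0 rose and 5 fell at 24 h in limma's test (0 also at an unadjusted p under 0.05), 4 rose and 2 fell at 48 h, and 6 rose and 2 fell at 72 h. The shares of all genes tested that rose were 35.1%, 43.8% and 48.1% (39.2% at 72 h under median-of-ratios scaling). The shares that fell were 31.0%, 34.8% and 31.6%. NFE2L1 held 171.7 ± 9.48 TPM untreated, 158.6 ± 4.58 TPM at 24 h, 214.7 ± 2.7 TPM at 48 h and 235.6 ± 7.62 TPM at 72 h (-0.11, 0.32 and 0.45). It stood at 313.9 ± 17.4 TPM in the control knockdown, 341 ± 7.96 TPM with the ARID2 hairpin (0.12) and 226.9 ± 2.94 TPM with the Aiolos label (-0.46). MAFF, a small partner factor, rose by 1.43 and MAFG by 0.70 at 72 h. MAFK of the same family went the other way, with changes of -0.60, -0.68 and -0.25 at 24, 48 and 72 h. Of 9 genes of class I peptide processing, 5 rose and 2 fell at 72 h (48.1% and 31.6% of all genes tested). IRF1, an interferon-responsive factor that binds GAAA repeats, rose from 43.73 ± 1.41 to 68.87 ± 1.35, 85.44 ± 0.885 and 100.8 ± 3.96 TPM (0.64, 0.95 and 1.19). TAPBP rose by 0.40 and B2M by 0.39 at 72 h. With the ARID2 hairpin IRF1 rose by 0.31, and with the Aiolos label by 0.51.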

How the data were processed

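RNA of MM.1S cells was sequenced after TruSeq v2 library preparation in 21 libraries, 3 in each of 7 groups. The authors deposited 1 table of TPM values per gene symbol, and hg38 is the build in the submitters' processing notes. For aligner, quantifier, annotation and counting strand: not given in the sources used here. TPM keeps no depth, so counting error is unknown. All 21 value columns matched a sample by name.

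The 12559 of 17691 genes that reached 1 TPM in 3 or more libraries were taken as log2(TPM + 1) and fitted with limma 3.58.1 (R 4.3.3) over all libraries, with a trended prior, 14 residual and 5.28 prior degrees of freedom and 10 contrasts. Benjamini-Hochberg adjustment was made per contrast, and an adjusted p under 0.05 was a call. Fold changes are on the log2(TPM + 1) scale, which understates those of low genes. The fit was tested on simulated data. Alternatives were other pseudocounts, filters, scalings (median-of-ratios, quantile, without mitochondrial mRNA), only the groups compared, a replicate block and leaving out each library. Leaving out the libraries labelled Aiolos knockdown was added after seeing the data.

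The genes and lists were chosen with earlier results of these data known. Named in full were the catalytic and activator genes, in each role class the genes with the largest and smallest change, and in each other list those with the smallest p. PSMC3IP, PSMD2, PSMF1 and the genes named for the control knockdown were picked after their values were seen, as were single genes of the other lists. Replicate numbers did not pair libraries. Some genes of the other lists are not reported here.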

Additional observations from a re-analysis of the deposited data

How the results depend on the processing

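Across 470 log2 changes of single genes, of which 375 passed, a pseudocount of 0.1 lost 0 calls in limma's test and a pseudocount of 5 lost 0, while the filter of 5 TPM lost 1 and no filter 6. Median-of-ratios scaling lost 30 and added 24, quantile normalization lost 31 and added 13, leaving out mitochondrial mRNA lost 18 and added 5, and fitting only the groups compared lost 11 and added 9. Leaving out single libraries lost 41 in at least 1 fit. Changes of sign came with median-of-ratios scaling: PSME1 at 72 h (-0.16, adjusted p = 0.00106) and PSMC4 in the drug minus Aiolos-label difference (-0.01, adjusted p = 0.916). The cause was not tested. Among counts of the 47 genes, 1 rose at each of 24, 48 and 72 h with median-of-ratios scaling. Without single libraries 1 to 2 rose at 24 h and 1 to 2 at 48 h, with 1 left without untreated replicate 2, 24 h replicate 2 or 48 h replicate 3. From 48 to 72 h, 21 rose with median-of-ratios scaling, and 4 fell with it, 4 with quantile normalization, 1 without mitochondrial mRNA and 0 to 1 without single libraries (1 without 72 h replicate 2). Of all genes tested, that step had 23.2% higher and 20.2% lower under quantile normalization, and 23.6% and 20.4% without mitochondrial mRNA. In the drug minus ARID2 difference 3 were higher with only the groups compared, 1 to 3 without single libraries (3 without 72 h replicate 2) and 2 without the libraries labelled Aiolos knockdown. In the drug minus Aiolos-label difference 2 were higher with median-of-ratios scaling and 5 with quantile normalization. The median change of the immunoproteasome members minus that of the constitutive subunits was 0.13 at 24 h (0.08 to 0.19 without single libraries), 0.47 at 48 h (0.42 to 0.49, and 0.43 with a pseudocount of 5), 0.15 at 72 h (0.08 without untreated replicate 3 to 0.23 without untreated replicate 2) and -0.03 with the Aiolos label (-0.10 to 0.02, the sign turning without replicate 3 of that label). With the replicate number as a block 4 of the 375 calls were lost and 0 added, and the numbers did not pair libraries, with correlations of deviations from -0.13 to 0.11. Unknown depth limits the precision of the lowest genes, PSMG4 and PSMD9.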
